A study of Mus musculus with 24 samples.

Results

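One of the 6 genotype groups of a mouse RNA-seq series carried 1 mutant allele of Kat6a (Kat6a +/-, Dlx5 +/+), and its transcriptome is described here against wild type (Kat6a +/+, Dlx5 +/+). The members were taken by their labels: the 4 Kat6a heterozygous libraries and the 4 wild type libraries, 8 of the 24 libraries of the series. Polyadenylated RNA came from pharyngeal arches 1 and 2 of female embryos at E10.5 on a C57BL/6 background, and the design text calls the 4 libraries of a genotype biological replicates without saying how many embryos each holds. The sample titles call the Kat6a mutation a knockout and give no further detail of the allele, and both groups carry the same intact Dlx5 alleles. Embryos came from 2 mouse facilities, which the labels give as batches: heterozygous replicate 4 is of batch 1, and the other 7 libraries are of batch 2. Further groups used below are the libraries labelled Kat6a homozygous (Kat6a -/-, 4 in batch 2), Dlx5 heterozygous (Kat6a +/+, Dlx5 +/-, 3 in batch 2 and 1 in batch 1), double heterozygous (Kat6a +/-, Dlx5 +/-, 1 in batch 2 and 3 in batch 1) and Dlx5 homozygous (Kat6a +/+, Dlx5 -/-, 4 in batch 1).

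Kat6a, also called Moz, is a histone acetyltransferase of the MYST family that acts in a complex with Brpf, Ing5 and Meaf6 subunits. It is known for keeping developmental transcription factor genes active, among them Hox genes, Tbx1 and Dlx genes. Pharyngeal arches 1 and 2 are embryonic outgrowths filled with cranial neural crest mesenchyme and covered by ectoderm and endoderm. They form the jaws, the middle ear and part of the outer ear. In the crest cells endothelin signalling from the epithelium induces Dlx5 and Dlx6, and these homeodomain factors with Hand2 set the lower (mandibular) identity of the arch.

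Depth, as the sum of counts over genes, was 11.5 to 28.2 M in wild type and 11.2 to 12.8 M in heterozygotes. Levels are given as CPM, counts scaled to a common library size with edgeR's TMM factors, and differences as log2 fold changes (heterozygous minus wild type). Crest mesenchyme markers were high in all 8 libraries, with summed levels of 1730 to 2146 CPM in wild type and 1811 to 2119 in heterozygotes, and Hoxa2, which marks arch 2, was present at 8.39 to 14.97 CPM. Replicate 2 of both groups stood apart by its neuron markers (a centred log2 score of 2.39 in wild type and 2.52 in heterozygotes, against −1.38 to −0.64 in the other 6). Wild type replicate 4 stood apart by gene length: its log2 CPM dropped by 0.148 for each doubling of length, against slopes of −0.0174 to 0.0973 in the other 7 libraries.

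The level of Kat6a itself does not check the labels. Kat6a (chromosome 8, 22859442 to 22943259 in GRCm38) was at 247, 203, 207 and 148 CPM in wild type replicates 1 to 4 and at 244, 259, 223 and 211 CPM in heterozygotes. The groups overlapped, the lowest library being wild type replicate 4, and the log2 fold change was 0.23 (SE 0.10, edgeR adjusted p = 0.408), or 0.10 without that library. The libraries labelled Kat6a homozygous were at 228 ± 14.6 CPM (SD, n = 4). Counts were summed over the whole gene, so they cannot show the loss of part of it. All statements below are therefore about the libraries labelled Kat6a heterozygous.

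No gene rose or fell in these heterozygous arches at a Benjamini-Hochberg adjusted p under 0.05. The nearest were the growth factor gene Vegfb, the mitochondrial genes Prelid1 and Mrpl34 and the bone regulator Runx2, each at adjusted p = 0.104. The test was edgeR's quasi-likelihood test over all 24 libraries with 6 group means and a batch term, and 0 of 14506 genes were called (0%). At an unadjusted p under 0.05 stood 1648 genes (11.4%), of which 767 lay higher (5.29%) and 881 lower (6.07%). That number depended on the fit. It was 794 of 13899 in a fit of the 2 groups alone and 929 of 14506 by limma voom. Without wild type replicate 4 it was 927 of 14649, and without wild type replicate 1 it was 2802 of 14643. Counts at this threshold in the gene lists below are those of the fit over all 24 libraries. Once the estimated batch effect was taken out, 680 genes (4.69%) had no overlap between the 2 groups, 410 lower (2.83%) and 270 higher (1.86%). In plain CPM the shares without overlap were 1.76% lower and 1.25% higher over all 4 heterozygous libraries, and 3.74% lower and 2.72% higher over those of batch 2. The median log2 fold change over all genes was 0.01. DESeq2 on the same design called 80 genes (0.551%), 7 higher and 73 lower, and limma voom called 0.

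Dlx genes, known targets of Kat6a in the arch, lay lower as a group without any of them being called. Of the 8 family members measured, 7 had a negative log2 fold change, 4 had an unadjusted p under 0.05 and the median was −0.21. The sign of Dlx1as and Dlx6, both near 0, changed in some alternative settings. The summed level of the 8 genes was 442 to 489 CPM in wild type and 390 to 407 CPM in heterozygotes, with no overlap. Groups with intact Kat6a reached down to similar sums, 395 to 475 CPM in Dlx5 heterozygotes and 402 to 431.5 CPM in Dlx5 homozygotes. The sums of the mandibular and T-box genes described below did not overlap between wild type and Kat6a heterozygotes either. Against the same wild type libraries, those labelled Kat6a homozygous had 7 of the 8 Dlx genes called lower (222 of all genes called, 1.53%), so that comparison is no separate evidence.

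Dlx6os1, the long noncoding RNA also called Evf2 (chromosome 6, 6820543 to 6871627), is transcribed against Dlx6 across the Dlx5 and Dlx6 locus and is known to act on the expression of its neighbours. It was at 54.5, 43.2, 54.0 and 43.7 CPM in wild type and at 41.1, 32.7, 37.6 and 34.8 CPM in heterozygotes. Each heterozygous library lay below each wild type library. The log2 fold change was −0.39 (SE 0.09, edgeR adjusted p = 0.146), 0.765 times the wild type level. It passed in DESeq2 (adjusted p = 0.0234). With intact Kat6a, Dlx5 heterozygotes were at 40.9 ± 4.98 and Dlx5 homozygotes at 25.1 ± 1.35 CPM (SD, n = 4 each). The RefSeq annotation of GRCm38.p6 gives promoter windows for 2 Dlx6os1 start sites, both on the minus strand, and they are shown because this transcript was called in every setting once both Dlx5 backgrounds were averaged. Capitals mark TAATTA, the core recognised by many homeodomain proteins, Dlx factors among them. It was searched on both strands (it reads the same on each).

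Dlx6os1 upstream start, chr6:6869484-6869783: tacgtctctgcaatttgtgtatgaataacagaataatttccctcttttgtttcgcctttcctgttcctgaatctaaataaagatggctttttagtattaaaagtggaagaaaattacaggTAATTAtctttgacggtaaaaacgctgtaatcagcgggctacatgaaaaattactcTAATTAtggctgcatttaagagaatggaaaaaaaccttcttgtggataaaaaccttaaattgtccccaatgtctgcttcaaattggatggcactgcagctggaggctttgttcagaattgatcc
Dlx6os1 downstream start, chr6:6861634-6861933: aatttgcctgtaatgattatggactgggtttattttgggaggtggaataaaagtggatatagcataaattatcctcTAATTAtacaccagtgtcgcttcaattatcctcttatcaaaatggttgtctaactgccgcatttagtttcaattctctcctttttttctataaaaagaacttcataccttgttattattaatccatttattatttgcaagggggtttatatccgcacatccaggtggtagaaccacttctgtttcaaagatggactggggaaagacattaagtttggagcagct
The windows run from 250 bases before to 50 bases after each start. The motif stood 2 times in the first and 1 time in the second, and 5.29% of all 32851 promoter windows of the same 300 bases held it. A match is a run of letters and no measured binding.

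Dlx4 (chromosome 11, 95140447 to 95146294), a distal-less gene with low expression in the arch, had the lowest log2 fold change of the family. Its wild type levels were 4.91, 4.99, 4.76 and 3.95 CPM and its heterozygous levels 2.80, 3.56, 3.39 and 2.66 CPM, so the groups did not overlap. The log2 fold change was −0.60 (SE 0.15, edgeR adjusted p = 0.146), and the library counts behind it were 47 to 137 in wild type and 30 to 45 in heterozygotes. Its neighbour Dlx3 (chromosome 11, 95120117 to 95125296), which acts in the distal mandible and in ectoderm, was at 94.2, 109, 101 and 98.4 CPM in wild type and at 89.9, 79.7, 73.7 and 76.2 CPM in heterozygotes. Here too the groups did not overlap (log2 fold change −0.31, SE 0.08, edgeR adjusted p = 0.174), and DESeq2 called the gene (adjusted p = 0.0458). Dlx5 homozygotes, with intact Kat6a, were at 2.89 ± 0.394 CPM for Dlx4 and 76.6 ± 5.58 CPM for Dlx3 (SD, n = 4 each).

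The pairs Dlx1 with Dlx2 and Dlx5 with Dlx6 each lie side by side in opposite directions and share enhancers. Dlx2, which acts in the upper and lower parts of arch 1, was at 146, 140, 114 and 129 CPM in wild type and at 112, 105, 111 and 119 CPM in heterozygotes. The groups overlapped, with heterozygous replicate 4 above wild type replicate 3 (log2 fold change −0.27, SE 0.09, edgeR adjusted p = 0.27). Dlx5, the mandibular regulator mutated in other groups of the series, was at 64.7, 79.0, 64.6 and 69.1 CPM in wild type and at 61.6, 63.8, 62.8 and 54.6 CPM in heterozygotes. All 4 heterozygous values were the lower ones, by a margin of less than 1 CPM at the nearest libraries (log2 fold change −0.15, SE 0.08, edgeR adjusted p = 0.486). Dlx1 stood at −0.11, the antisense transcript Dlx1as at −0.01 and Dlx6 at 0.05, with overlapping groups in each case. The library kit keeps strand, but whether counting used it is not stated in the labels, so reads of Dlx6 and Dlx6os1, or of Dlx1 and Dlx1as, may have been assigned to either partner.

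**Figure D1:**
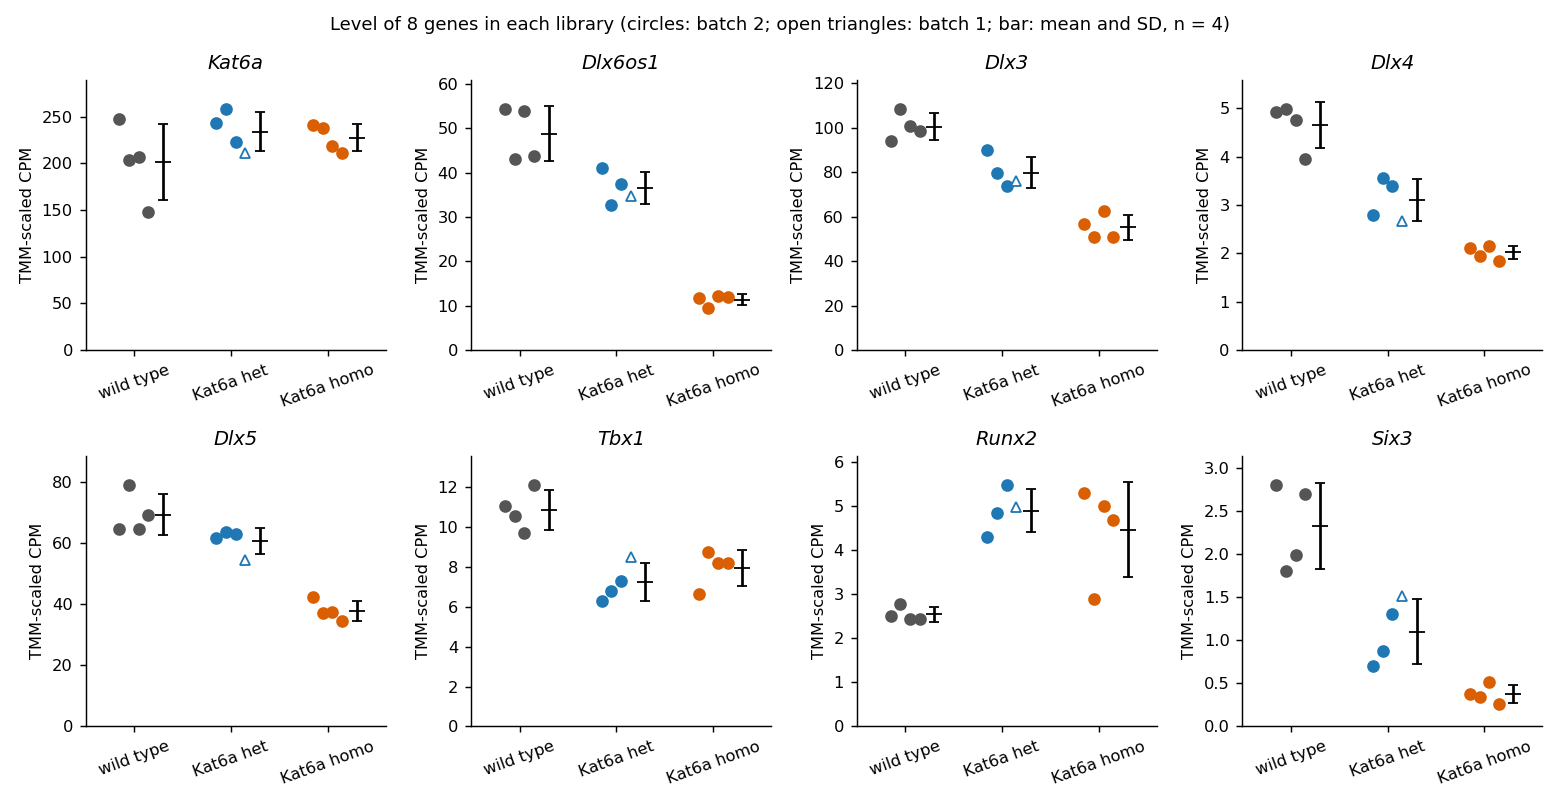
Level of 8 genes in each library of wild type, Kat6a heterozygous and Kat6a homozygous labelled arches (vertical axis: TMM-scaled CPM from 0; bars: mean and SD, n = 4; open triangle: the batch 1 library). Dlx6os1, Dlx3, Dlx4, Dlx5, Tbx1 and Six3 are lower in all 4 heterozygous libraries than in any wild type library and Runx2 is higher, while Kat6a overlaps.

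The 10 genes that ranked first on the lower side (by p, with no overlap and a mean level of 5 CPM or more) were all shorter than the median gene (2846.5 bases). Lack of overlap was a condition of the ranking on both sides, so for the ranked genes it is no separate result. Vegfb, a vascular endothelial growth factor family ligand, led them with 48.4, 56.9, 44.5 and 57.3 CPM in wild type and 34.7, 35.7, 40.4 and 43.5 CPM in heterozygotes. Its groups did not overlap, heterozygous replicate 4 coming within 1 CPM of wild type replicate 3. The log2 fold change was −0.46 (SE 0.09, edgeR adjusted p = 0.104), and it was called in 3 of 37 alternative settings. Prelid1 (−0.28), a lipid carrier of the mitochondrial intermembrane space, and Mrpl34 (−0.49), a mitochondrial ribosomal protein, had the same adjusted p. The transcription factor Twist2, a crest mesenchyme and dermal regulator, was at 48.3, 66.6, 62.0 and 60.7 CPM in wild type and at 34.4, 34.3, 45.0 and 45.5 CPM in heterozygotes. It had no overlap either (log2 fold change −0.59, SE 0.12, edgeR adjusted p = 0.129).

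The other 6 on the lower side had log2 fold changes of −0.38 to −0.29. They were the ribosome biogenesis factors Nop53 (−0.33) and Eif6 (−0.29), the ribosomal stalk protein gene Rplp1 (−0.32), the actin-binding profilin gene Pfn1 (−0.33), the replication licensing factor Cdt1 (−0.36) and the splicing factor gene Sf3b5 (−0.38). In plain CPM, without removal of the batch effect, heterozygous replicate 4 overlapped wild type for Prelid1, Nop53, Rplp1 and Sf3b5. By the deposited table the 10 genes ran from 468 bases (Rplp1) to 2191 bases (Cdt1).

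On the higher side the 10 ranked genes, chosen by the same rule, included genes of the extracellular matrix. Postn, encoding periostin, a matrix protein of connective tissue, was at 28.4, 28.8, 28.9 and 27.6 CPM in wild type and at 34.1, 35.9, 34.8 and 31.9 CPM in heterozygotes. The wild type libraries spread over little more than 1 CPM and all 4 heterozygous libraries lay above them (log2 fold change 0.32, SE 0.07, edgeR adjusted p = 0.146). DESeq2 called it, at adjusted p = 0.0253. With intact Kat6a, Dlx5 heterozygotes were at 33.9 ± 2.69 and Dlx5 homozygotes at 35.3 ± 2.23 CPM (SD, n = 4 each). Crispld2, a secreted protein gene with a known tie to orofacial clefting, was at 10.8, 10.6, 12.6 and 10.8 CPM in wild type and at 14.5, 16.8, 14.9 and 14.7 CPM in heterozygotes. It did not overlap (0.48, SE 0.11, edgeR adjusted p = 0.146), wild type replicate 3 being the highest of its group. Col3a1, the fibrillar collagen III chain, had 632 ± 55.5 CPM in wild type and 725 ± 58.5 CPM in heterozygotes (SD, n = 4 each; 0.24, edgeR adjusted p = 0.158), with overlap in plain CPM. Ddr2, a receptor for fibrillar collagen, stood at 0.33.

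Kat6b, the closest relative of Kat6a, was also among the 10. It was at 59.5, 55.1, 57.6 and 43.3 CPM in wild type and at 61.8, 68.1, 74.6 and 60.3 CPM in heterozygotes. All heterozygous libraries were above all wild type libraries, by less than 1 CPM at the closest (0.33, SE 0.08, edgeR adjusted p = 0.149). Without wild type replicate 4, its lowest library, the log2 fold change was 0.24. Tcim (0.38), a small regulator of Wnt signalling, Hcfc2 (0.32), Rsbn1l (0.28), Lnpk (0.24), a shaper of the endoplasmic reticulum, and Fam135a (0.23) made up the rest. Of these 10, Ddr2, Lnpk, Kat6b and Fam135a are 6467 to 8775 bases long.

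**Figure D2:**
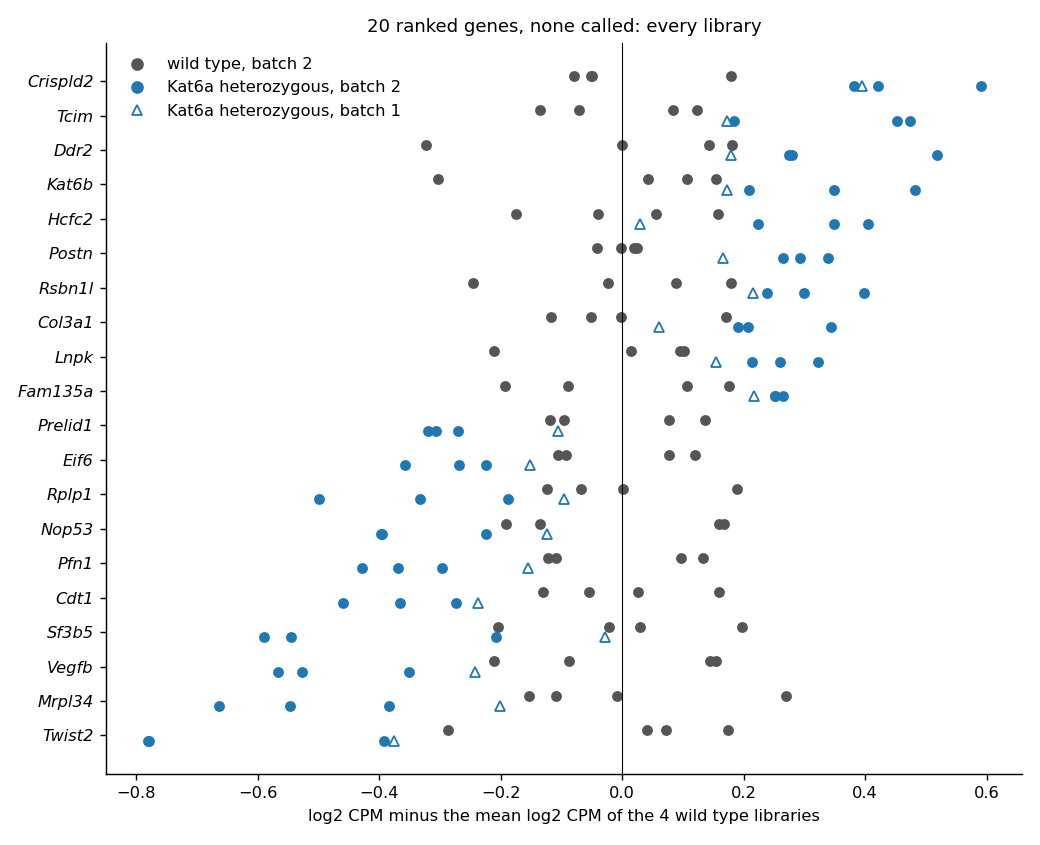
The 20 ranked genes in every library, as log2 CPM minus the mean of the 4 wild type libraries (horizontal axis; grey: wild type, blue: heterozygous, open triangle: the batch 1 library). None was called, and for most lower genes heterozygous replicate 4 is the heterozygous library nearest to wild type.

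Mandibular patterning genes, which act in the lower part of the arch downstream of or beside Dlx5 and Hand2, lay lower more often than higher. Of 21 measured, 15 were negative, 8 had an unadjusted p under 0.05, all 8 lower, and the median was −0.19. It was −0.12 with length-corrected offsets and −0.31 without wild type replicate 1. Barx1, a homeobox gene of the proximal mandible, was at 136, 184, 140 and 163 CPM in wild type and at 102, 103, 116 and 120 CPM in heterozygotes. Its groups did not overlap (−0.50, SE 0.13, edgeR adjusted p = 0.166), and DESeq2 called it (adjusted p = 0.0153). Foxc1, a forkhead gene of jaw and eye mesenchyme, also had separate groups, 56.5 ± 4.22 against 44.9 ± 2.29 CPM (SD, n = 4 each; −0.31, edgeR adjusted p = 0.19). Hand2 stood at −0.31 and Hand1, its relative of the distal midline, at −0.33, both with overlap.

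Msx1, a homeobox gene of distal arch mesenchyme and palate, varied within the heterozygous group itself. It was at 36.8, 53.3, 50.8 and 59.7 CPM in wild type and at 17.3, 16.9, 39.8 and 42.8 CPM in heterozygotes. Heterozygous replicates 1 and 2 stood at less than all other libraries, while replicates 3 and 4 lay within the wild type range (−0.85, SE 0.31, edgeR adjusted p = 0.32). Foxe1, a forkhead gene of the thyroid primordium and palate, split along the same line, with 2.10 and 1.82 CPM in heterozygous replicates 1 and 2 and 6.25 and 6.04 CPM in replicates 3 and 4, against 4.55 to 7.15 CPM in wild type. Markers of surface epithelium and pharyngeal endoderm were also lower in heterozygous replicates 1 and 2 than in replicates 3 and 4. Summed surface epithelium markers were 495, 440, 717 and 748 CPM in heterozygous replicates 1 to 4 and 472 to 632.5 CPM in wild type. Here replicates 3 and 4 lay above the wild type range, replicate 1 inside it and replicate 2 below it. Summed pharyngeal endoderm markers were 36.8, 31.2, 48.1 and 53.3 CPM, against 43.8 to 56.8 CPM in wild type. The part of tissue content in the split was not tested. The summed mandibular list, which holds Msx1, was also lower in heterozygous replicates 1 and 2 (1338 and 1350 CPM) than in replicates 3 and 4 (1480 and 1481). Unlike Msx1 and Foxe1, all 4 lay below wild type (1506 to 1933 CPM). Its most abundant member, Dlk1, was at 631 ± 78.9 CPM in wild type and 501 ± 55.3 CPM in heterozygotes (SD, n = 4 each).

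T-box genes lay on both sides of wild type. Tbx1, the arch and pharyngeal regulator that is a known Kat6a target, was at 11.1, 10.6, 9.69 and 12.1 CPM in wild type and at 6.299, 6.81, 7.29 and 8.52 CPM in heterozygotes. No heterozygous library reached the wild type range, and the level was 0.652 times that of wild type (log2 fold change −0.62, SE 0.15, edgeR adjusted p = 0.146). The libraries labelled Kat6a homozygous were at 7.94 ± 0.90 CPM, and among groups with intact Kat6a Dlx5 heterozygotes were at 9.29 ± 1.39 and Dlx5 homozygotes at 7.27 ± 1.69 CPM (SD, n = 4 each). Tbx2, a repressor of the cell cycle inhibitor gene Cdkn1a, was at 198 ± 38.3 CPM in wild type and at 154 ± 14.5 CPM in heterozygotes (SD, n = 4 each; −0.38, edgeR adjusted p = 0.266). Tbx15 (0.77) and Tbx4 (0.50) lay higher at an unadjusted p under 0.05. Over the 8 T-box genes measured the median was −0.13.

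Runx2, the master regulator of bone formation, had the largest difference among the skeletal genes. It was at 2.51, 2.78, 2.42 and 2.44 CPM in wild type and at 4.29, 4.83, 5.47 and 4.97 CPM in heterozygotes. Every heterozygous library stood well above every wild type library, at 1.94 times the level (log2 fold change 0.96, SE 0.19, edgeR adjusted p = 0.104), from 28 to 70 counts per wild type library. Groups with both Kat6a alleles intact stood as high, at 5.03 ± 1.10 CPM in Dlx5 heterozygotes and 4.45 ± 0.213 CPM in Dlx5 homozygotes (SD, n = 4 each). It was called in 1 of 37 alternative settings. Col1a2, a chain of the bone and dermis collagen, stood at 0.22, and the median over the 11 skeletal genes measured was 0.02.

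Genes of pharyngeal endoderm, endothelium and the brain and eye, which are tissues beside the crest mesenchyme, lay lower too. Of 8 endodermal markers 4 had an unadjusted p under 0.05, all lower, among them Foxe1 (−0.70), Hhex (−0.55) and Shh (−0.37), with a list median of −0.41. Shh, the hedgehog ligand of the arch epithelium, was at 13.3, 12.7, 13.3 and 13.2 CPM in wild type and at 8.49, 8.94, 11.3 and 14.4 CPM in heterozygotes. Heterozygous replicate 4 was the highest of all 8, so the groups overlapped (SE 0.14, edgeR adjusted p = 0.326). Of 13 endothelial markers 12 were negative and 5 had an unadjusted p under 0.05, with a median of −0.15. They included Cldn5, the tight junction protein of vessels (18.5 ± 1.73 against 14.2 ± 1.60 CPM, SD, n = 4 each; −0.43, edgeR adjusted p = 0.146), and Sox18, a vascular transcription factor (−0.40), while Kdr, Pecam1 and Cdh5, defining genes of endothelium, stood at −0.02, −0.03 and 0.05. Summed levels overlapped for endothelium (402 to 449 CPM in wild type, 378 to 430 CPM in heterozygotes) and for endoderm (43.8 to 56.8 and 31.2 to 53.3 CPM). In bulk tissue fewer cells of a type and less RNA per cell cannot be told apart.

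Six3, a homeobox gene of forebrain and eye, had the lowest value of the brain and eye list. It was at 2.80, 1.8, 1.99 and 2.69 CPM in wild type and at 0.70, 0.87, 1.30 and 1.51 CPM in heterozygotes. The groups did not overlap (−1.33, SE 0.33, edgeR adjusted p = 0.146), though the heterozygous values rest on 8 to 17 counts per library. Lhx2 (−0.41) and Emx1 (−0.51) had an unadjusted p under 0.05 with overlapping groups. All 9 measured genes of the list were negative (median −0.51, or −0.32 without wild type replicate 1, which had the highest sum), and its summed level was 28.5 to 41.8 CPM in wild type and 21.1 to 32.9 CPM in heterozygotes.

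Subunits and relatives of the Kat6a complex lay slightly higher: all 12 were positive, with a median of 0.08, and Kat6a and Kat6b were the 2 with an unadjusted p under 0.05. With length-corrected offsets the median was 0.03. Other histone acetylation genes, 20 in all, had a median of 0.02. Of the Hox genes, the best-known targets of Kat6a, 4 of 15 were expressed enough to be tested, and none was called. Hoxa2 stood at 0.06, Hoxb2 at −0.21 and Hoxb3 at −0.37.

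Signalling pathways showed few differences. Among 12 hedgehog genes the receptor and target Ptch1 lay higher (130 ± 27.4 against 165 ± 12.9 CPM, SD, n = 4 each; 0.33, edgeR adjusted p = 0.229). The ligand Shh (−0.37) and Gas1 (−0.24) lay lower at an unadjusted p under 0.05, and the median was 0.11. Among 21 bone morphogenetic protein genes the response genes Id1 (−0.43) and Id3 (−0.26) and the inhibitor Smad6 (−0.31) lay lower and the receptor Bmpr1a (0.14) higher, at unadjusted p under 0.05, with a median of 0.03. In retinoic acid metabolism the synthesis enzyme gene Aldh1a3 was at 38.3, 14.5, 25.9 and 32.8 CPM in wild type and at 14.96, 6.57, 18.5 and 24.1 CPM in heterozygotes. Its groups overlapped and the level varied widely in both, replicate 2 being the lowest in each (−1.09, SE 0.37, edgeR adjusted p = 0.286). Medians were 0.005 for retinoic acid (15 genes), 0.004 for Fgf (14 genes), 0.03 for Wnt (19 genes) and −0.04 for endothelin signalling (12 genes).

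The remaining lists had medians of −0.35 to 0.24. Crest mesenchyme had a median of −0.05, maxillary patterning 0.01, palate 0.11 (with Pax9, a palate and tooth regulator, at 0.31), cell cycle −0.06, p53 and checkpoint genes −0.02, glycolysis and hypoxia −0.12 and immediate early genes −0.15. Of 14 checkpoint genes 4 lay lower at an unadjusted p under 0.05, among them Cdkn1a (−0.26) and the apoptosis gene Bbc3 (−0.50). Markers of other cells had medians of 0.24 for neurons, 0.19 for glia, −0.02 for surface epithelium, 0.01 for muscle, 0.08 for erythroid cells, 0.09 for macrophages and −0.35 for heart muscle (4 genes). Summed neuron markers were 137 to 613 CPM in wild type and 148 to 687 CPM in heterozygotes, their highest values being replicate 2 of each group. No neuron marker had an unadjusted p under 0.05. Without wild type replicate 1 the medians were −0.085 for neurons, 0.07 for glia, −0.005 for palate and −0.11 for checkpoint genes, and within batch 2 that of neurons was 0.48.

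**Figure D3:**
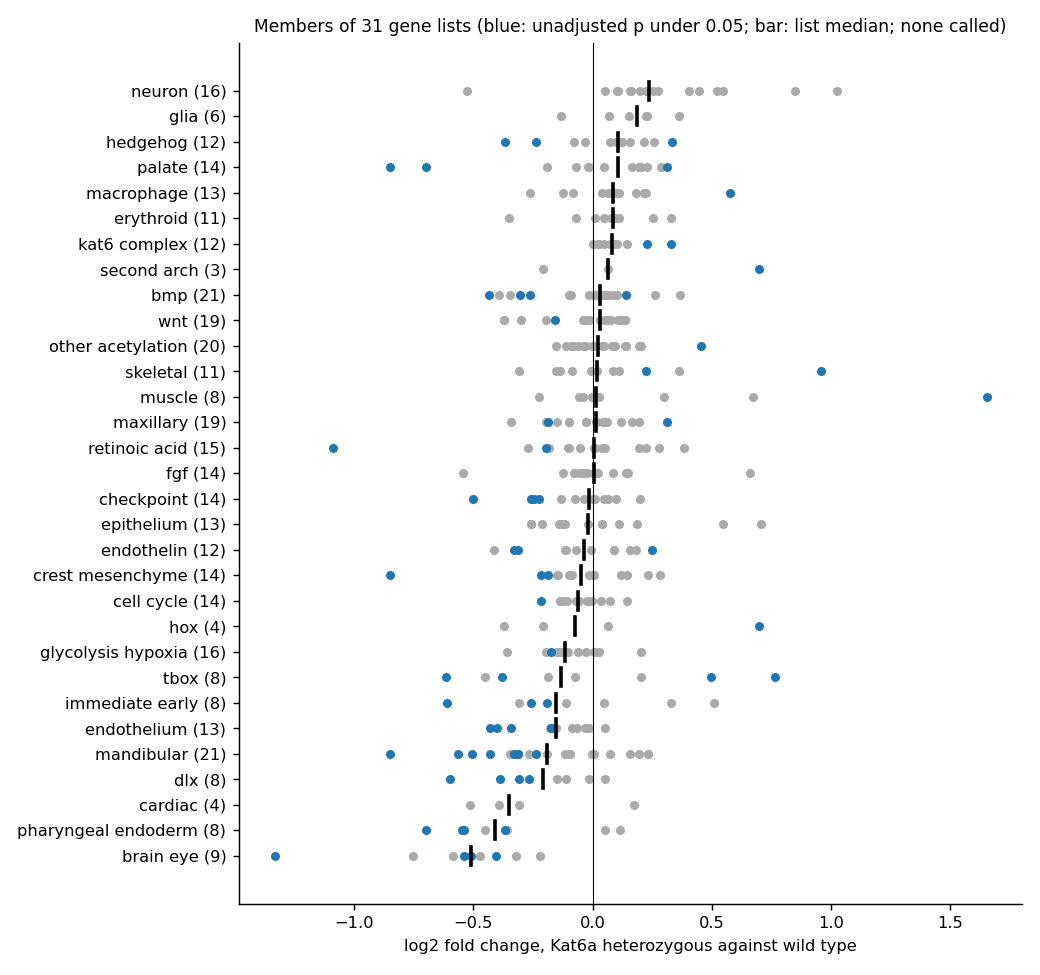
Log2 fold change (horizontal axis) of each tested member of the 31 gene lists, with the number tested in brackets (blue: unadjusted p under 0.05; black bar: list median). Brain and eye, pharyngeal endoderm, Dlx and mandibular lists lie to the left, with medians of −0.51, −0.41, −0.21 and −0.19, and no member of any list was called.

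Short genes lay lower and long genes higher in this comparison. With genes sorted by length into 10 equal bins, from the shortest bin (30 to 1068 bases) to the longest (6287 bases and more) the median log2 fold change went from −0.10 to 0.13 (1451 genes each), and in the shortest bin 215 genes lay lower and 25 higher at an unadjusted p under 0.05. Without wild type replicate 4, the library with the steep length slope, the same medians went from −0.04 to 0.04. Without wild type replicate 1, whose slope leans the other way (0.0431), they went from −0.16 to 0.19. Ribosomal protein genes, short and abundant, were negative in 80 of 80 cases with a median of −0.20, and their share of all counts was 1.32% to 1.68% in wild type, highest in replicate 4, and 1.18% to 1.38% in heterozygotes. With offsets that remove each library's trend with length their median was −0.10. Dlx6os1 (−0.42), Dlx4 (−0.56), Dlx3 (−0.30), Tbx1 (−0.58), Runx2 (0.87) and Six3 (−1.36) kept their size under these offsets, whereas Kat6a went to 0.10, Lnpk to 0.11, Fam135a to 0.14, Ddr2 to 0.21, Prelid1 to −0.20 and Rplp1 to −0.20.

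**Figure D4:**
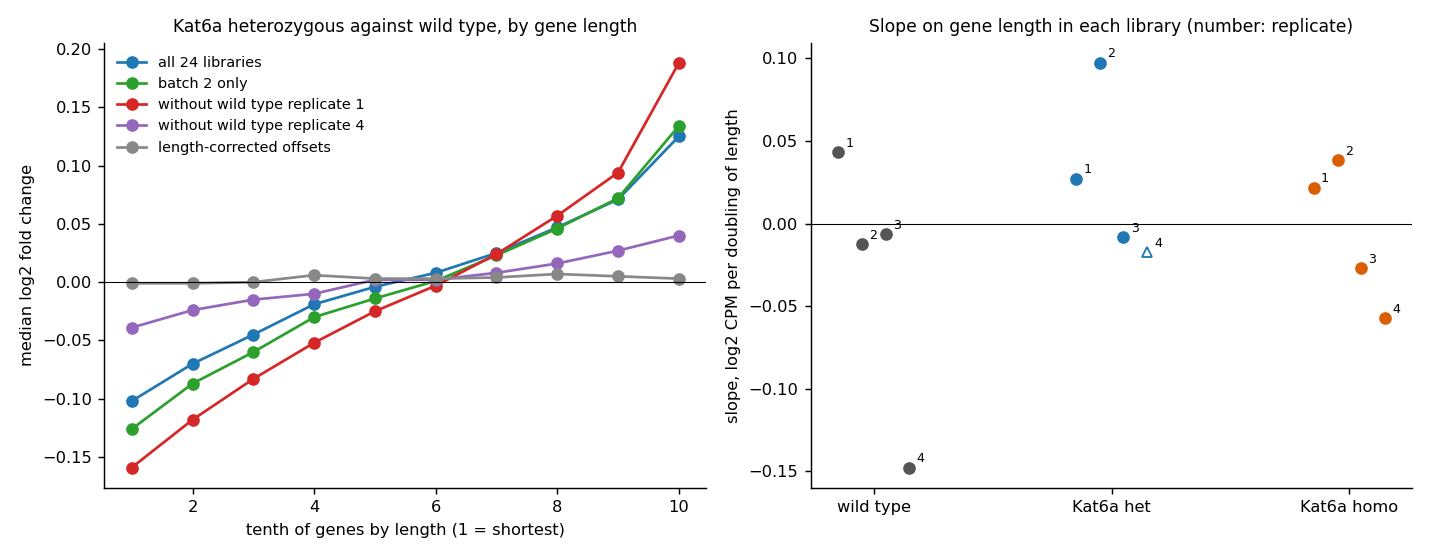
Left, median log2 fold change of heterozygous against wild type arches in 10 bins of genes by length (1451 or 1450 genes each), under 5 settings; right, slope of log2 CPM on doubling of gene length in each library. The trend shrinks to between −0.04 and 0.04 without wild type replicate 4, whose slope is −0.148.

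Within batch 2 heterozygous replicates 1 to 3 were set against the 4 wild type libraries with no batch term. In a fit of all batch 2 libraries, whatever their genotype, 1 of 15000 genes was called (0.00667%). A fit of these 7 libraries alone called 0 of 14037, with 826 at an unadjusted p under 0.05. The call was Nr2f6, an orphan nuclear receptor gene, which fell by 0.78 on the log2 scale (SE 0.105, edgeR adjusted p = 0.0141). Its levels were 71.2, 92.8, 80.0 and 96.2 CPM in wild type and 46.8, 43.5 and 58.4 CPM in the 3 heterozygous libraries of that batch. Heterozygous replicate 4, of the other facility, was at 72.3 CPM, inside the wild type range, and over all libraries the value was −0.71 (adjusted p = 0.146). The call was also lost without wild type replicate 2 or without heterozygous replicate 1 or 2, each leaving 0 genes called, while 75 genes (73 lower) were called without heterozygous replicate 3 and 2 without wild type replicate 1. Batch 2 log2 fold changes of the leading members were close to those of the full fit: Vegfb −0.49, Mrpl34 −0.54, Dlx6os1 −0.41, Dlx4 −0.52, Dlx3 −0.31, Tbx1 −0.68, Runx2 0.93, Postn 0.29 and Kat6b 0.33. DESeq2 called 56 genes there, all lower.

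The count of called genes depended on the libraries and the model. Without wild type replicate 1, the deepest library, edgeR called 196 genes (1.34%), 116 lower and 80 higher, and their median lengths were 1322.5 and 6358.5 bases. The same fit with length-corrected offsets called 0, and thinning wild type replicate 1 to 12.4 M counts also gave 0. Of DESeq2's 80 calls 65 were among the 196 (81.2% of the former, 33.2% of the latter). Without wild type replicate 3 there were 2 calls, Vegfb and Prelid1, and without heterozygous replicate 3 there was 1, Bola1 (−0.74).

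Same-numbered wild type and heterozygous libraries correlated in their deviations from the group means, strongly only for replicate 2 (r = 0.661, the others 0.183 to 0.2). Fits with the replicate number as a block gave other counts. With the block over all 24 libraries 0 genes were called, with the block and length-corrected offsets 1 (Dlx6os1, −0.45, adjusted p = 0.0285), and within batch 2 with the block 10, 3 higher and 7 lower. In a blocked fit of the 8 libraries alone 40 genes were called, 32 lower and 8 higher. That fit has 2 residual degrees of freedom, and since heterozygous replicate 4 is alone in its batch the contrast rests on replicates 1 to 3 of each group. Its lower calls included Dlx6os1 (−0.44, adjusted p = 0.00949), Barx1, Foxc1, Twist2, Nr2f6, Aldh1a3, Id1, Vegfb and the pluripotency and growth genes Lin28a and Myc. Among its 8 higher calls were 4 globin genes, with the largest change in Hbb-bs (1.55) and the smallest adjusted p in Hbb-b1 (1.20). Hbb-b1, an adult beta globin gene, was at 14.2, 9.24, 12.7 and 21.6 CPM in wild type, at 26.2, 25.2 and 32.1 CPM in heterozygous replicates 1 to 3 and at 8.08 CPM in replicate 4. The embryonic alpha-like globin gene Hba-x was at 1090 ± 446 and 1069 ± 337 CPM (SD, n = 4 each), and reads of near-identical globin copies may be split between genes. Summed erythroid markers were 2033 to 5093 CPM in wild type and 1969 to 3789 CPM in heterozygotes, and their part in these calls was not tested.

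**Figure D5:**
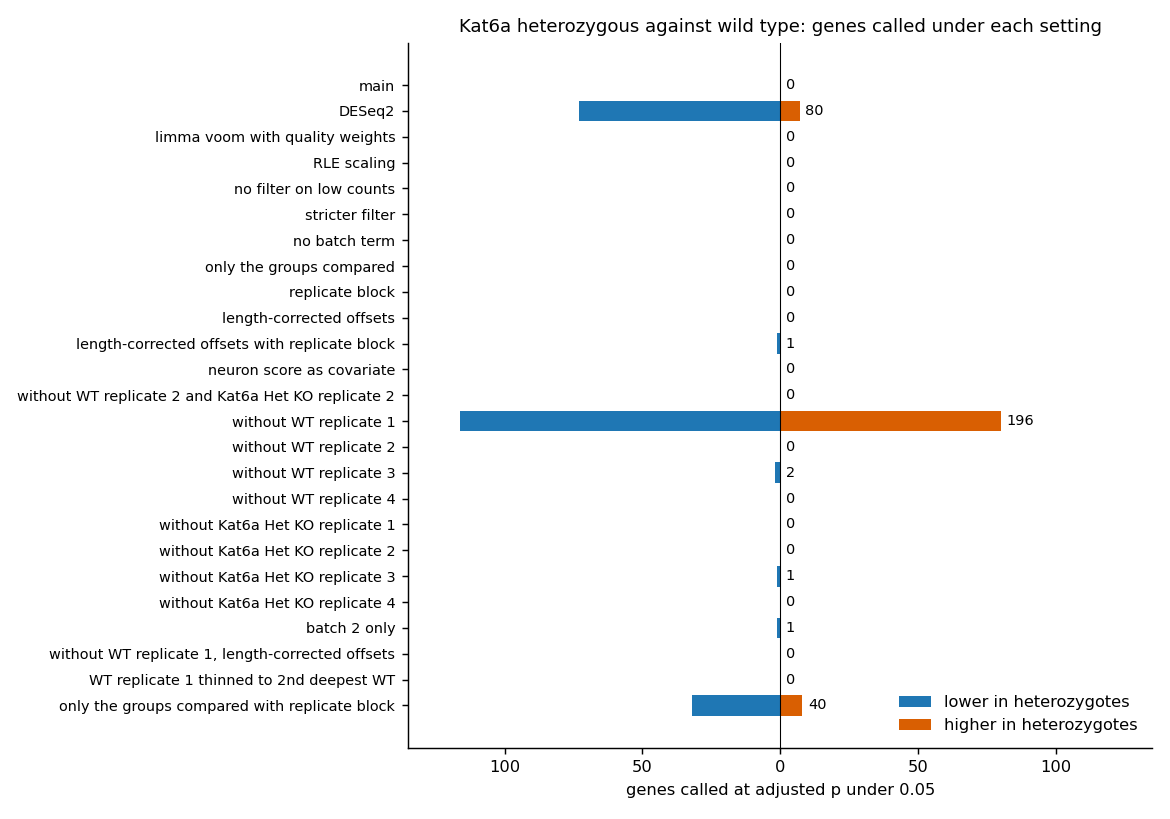
Number of genes called at an adjusted p under 0.05 in heterozygous against wild type arches under each setting that touches these libraries (horizontal axis; left: lower, right: higher; printed: total). Most settings give 0, and the counts of 80, 196 and 40 come from DESeq2, from leaving out wild type replicate 1 and from the blocked fit of the 8 libraries.

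The series holds a second comparison of 1 mutant Kat6a allele with none: double heterozygous against Dlx5 heterozygous libraries, all with 1 mutant Dlx5 allele. It shares no library with the first comparison, only the batch term and the spread estimate. Dlx6os1 fell there from 40.9 ± 4.98 to 23.3 ± 1.05 CPM (SD, n = 4 each), a log2 fold change of −0.73 (edgeR), and Mpo, the myeloid granule enzyme, rose by 1.47. These were the 2 genes called of 14506 (0.0138%, adjusted p = 0.00261 and 0.0298), and 5.9% had an unadjusted p under 0.05. For Dlx6os1 the call held in 35 of 37 settings and for Mpo in 22. Other members stood in this second comparison at −0.17 for Dlx3, −0.33 for Dlx4, 0.30 for Postn, 0.27 for Kat6b, 0.25 for Col3a1, 0.28 for Tcim and −1.43 for Six3. By contrast Vegfb stood at −0.04, Twist2 at 0.02, Nr2f6 at −0.03, Tbx1 at −0.10, Runx2 at 0.12, Barx1 at −0.03 and Msx1 at −0.08.

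List medians in the second comparison were −0.12 for Dlx genes, 0.04 for mandibular genes, 0.15 for endothelium, −0.33 for pharyngeal endoderm and −0.51 for brain and eye. In separate fits of 8 libraries each, 59.4% of 13786 genes had the same sign in both comparisons. Among the 788 genes at an unadjusted p under 0.05 in the first the share was 63.8%, with 70.1% for the higher ones and 60.7% for the lower ones. Of the ranked genes 9 of the 10 higher and 8 of the 10 lower had the same sign. In the fit of all 24 libraries the second comparison also had short genes lower and long genes higher. Its median log2 fold change was −0.085 in the shortest bin of genes and 0.064 in the longest. The part of gene length in the shared signs was not tested. Double heterozygous libraries are mostly of batch 1 and Dlx5 heterozygous libraries mostly of batch 2.

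Averaged over both Dlx5 backgrounds, 4 genes were called (0.0276%) in the 8 libraries with 1 mutant Kat6a allele against the 8 with none. Dlx6os1 fell by 0.56 on the log2 scale (SE 0.073, edgeR adjusted p = 0.000582) and was called in 37 of 37 settings, with values of −0.65 to −0.51. Six3 fell by 1.38 (SE 0.256, adjusted p = 0.0455), called in 13 of 37. Postn rose by 0.31 (SE 0.055, adjusted p = 0.0355), called in 18, and Mpo rose by 1.02 (SE 0.172, adjusted p = 0.0227), called in 28. Without the batch term Six3 stood at −1.10 and Postn at 0.235 (edgeR adjusted p = 0.381 and 0.402), while Dlx6os1 stood at −0.617 (adjusted p = 1.4e-05). Within batch 2, where the double heterozygous arm is 1 library, the values were −1.05 for Six3, 0.327 for Postn and −0.652 for Dlx6os1. Leaving out single libraries gave 1 to 7 calls.

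Mpo differed between the batches. Its levels were 3.30, 3.27, 2.42 and 3.62 CPM in wild type, 4.64, 5.62 and 4.77 CPM in heterozygous replicates 1 to 3 and 1.33 CPM in replicate 4. The batch 1 library was the lowest of the 8 and the other 3 were the highest. In Dlx5 heterozygotes the single batch 1 library was likewise lower (1.19 CPM) than the 3 of batch 2 (2.67 to 3.16 CPM), and in double heterozygotes the 3 of batch 1 (2.87 to 4.23 CPM) were lower than the 1 of batch 2 (6.84 CPM). Without the batch term the averaged value was 0.61 (adjusted p = 0.456). Within batch 2 it was 0.94 (adjusted p = 0.1).

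The difference between the backgrounds was tested itself and gave 1 call (0.00689%): Gm6402, a transcribed pseudogene on chromosome 17, with a difference of 1.24 on the log2 scale (edgeR adjusted p = 0.032). It was at 14.5 ± 2.30 CPM in wild type and 10.03 ± 1.67 in Kat6a heterozygotes, against 10.53 ± 1.52 in Dlx5 heterozygotes and 16.7 ± 2.74 in double heterozygotes (SD, n = 4 each). It lies outside the naming rule and was singled out after its values were seen. For Nr2f6 the difference was 0.68, for Runx2 −0.84 and for Twist2 0.60, none of them called (adjusted p = 0.877, 0.877 and 0.862).

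Placed between wild type and the libraries labelled Kat6a homozygous, most Dlx genes stood part of the way down. Dlx6os1 went from 48.8 ± 6.21 to 36.6 ± 3.65 and 11.4 ± 1.23 CPM (SD, n = 4 each), Dlx3 from 101 ± 6.04 to 79.9 ± 7.11 and 55.2 ± 5.56, and Dlx4 from 4.65 ± 0.476 to 3.10 ± 0.437 and 2.02 ± 0.142. Dlx5 went from 69.4 ± 6.78 to 60.7 ± 4.16 and 37.9 ± 3.29. A test of the heterozygous level against the midpoint of the other groups on the log2 scale called 3 genes (0.0207%), all above the midpoint. It called 0 with only the groups compared and 1 without the batch term. Dlx6os1 stood 0.66 above it (edgeR adjusted p = 0.000306), Col8a2, a collagen VIII chain, 0.86 (adjusted p = 0.000509) and Enpp2, the lysophosphatidic acid synthesis enzyme autotaxin, 0.44 (adjusted p = 0.0226), called in 36, 35 and 29 of 37 settings. Col8a2 was at 33.0 ± 5.95, 36.1 ± 4.54 and 13.9 ± 2.66 CPM and Enpp2 at 47.4 ± 4.18, 47.4 ± 2.51 and 26.9 ± 4.31 CPM in wild type, heterozygous and homozygous labelled libraries (SD, n = 4 each). For Col8a2 and Enpp2 the heterozygous libraries overlapped wild type. The midpoint test called neither Tbx1 nor Runx2 (adjusted p = 0.331 and 0.192).

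The genes beside Kat6a on chromosome 8 were examined because a mutant allele can bring flanking sequence with it. Of 26 tested genes within 2 Mb, Kat6a included, Kat6a and Tcim had an unadjusted p under 0.05 and none was called. Tcim (24437172 to 24438946) was at 20.6, 24.6, 24.0 and 21.5 CPM in wild type and at 31.4, 30.9, 25.7 and 25.5 CPM in heterozygotes. Its groups did not overlap (edgeR adjusted p = 0.146). Zmat4, a zinc finger gene of the same stretch singled out after its values were seen, was at 14.4 ± 2.60 and 14.3 ± 2.51 CPM in wild type and heterozygotes (SD, n = 4 each), and fell by 1.42 on the log2 scale in the libraries labelled homozygous (edgeR adjusted p = 3.91e-05).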

How the data were processed

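The authors deposited raw read counts per gene for 24 libraries, with Entrez identifiers and gene lengths. The submitters' processing notes name CASAVA 1.8.2, featureCounts and the build mm10. No source used here gives the aligner, the annotation or the strand setting. Of 27179 entries 568 had no identifier (0.182% to 0.259% of a library's counts) and were left out. Of 26611 identifiers 25275 matched a symbol, and coordinates are RefSeq's of GRCm38.

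Counts were analysed with edgeR 4.0.16 in R 4.3.3: filterByExpr (14506 genes kept), TMM, robust quasi-likelihood fits of 6 group means and batch (17 residual degrees of freedom). The procedure was tested on simulated data. The threshold for a call was an adjusted p (Benjamini-Hochberg) of 0.05. Alternatives were DESeq2 1.42.0, limma 3.58.1 voom, RLE scaling, other filters, batch 2 alone, no batch term, only the groups compared, a replicate block, length-corrected offsets, a neuron covariate and leaving out libraries. The fit without wild type replicate 1 under length-corrected offsets, the thinning of that library and the 8-library blocked fit were chosen after seeing the data. The members, the 31 lists and the naming rule were chosen with earlier results of these data known. The rule names Kat6a, Kat6b and the Dlx family, genes called in a comparison or in at least 3 settings, up to 3 members of a list by p, and in each direction the 10 smallest p among genes of 5 CPM or more without overlap after batch removal and in batch 2, leaving out predicted genes and pseudogenes. Genes named beyond it were chosen after their values were seen. Some genes the rule names are not reported here.

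Same-numbered wild type and heterozygous libraries correlated in their deviations from the group means (r = 0.183 to 0.661, 4 of 4 pairs over 0.1). The numbers were therefore used as pairs only in the fits with a replicate block. All other fits, the main one included, have no replicate term. No label says that the numbers are pairs, and replicate 4 of wild type and of heterozygotes are of different batches. The r of 0.661 was that of replicate 2, and the other same-numbered pairs had 0.183 to 0.2. The block over all 24 libraries also used the numbers of Dlx5 heterozygous and double heterozygous libraries. Between those 2 groups r was −0.152 to 0.166 (1 of 4 pairs over 0.1). Wild type replicate 4 correlated more with heterozygous replicate 3 (0.263) than with 4 (0.2). No replicates were duplicates (chi-square per degree of freedom 4.73 to 21.9). The p-values measure the spread between these libraries.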

Additional observations from a re-analysis of the deposited data

Results flagged for a closer look

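Wild type replicate 2 had a neuron score of 2.39, far above the other 3 wild type libraries (−1.27 to −0.99). Wild type replicate 1 had 28.198 M counts, against 11.5 to 12.4 M in the other 3. Crispld2 was at 12.62 CPM in wild type replicate 3 and at 10.6 to 10.8 CPM in the other 3. Of 136 groups of 4 values examined for a sample far from the others 3 were marked (2.21%), where chance gives about 5%. Gm6402 responded differently to 1 mutant Kat6a allele in the 2 Dlx5 backgrounds, by 1.24 on the log2 scale in a test of the difference itself. Voom, the fit of the compared groups alone, the replicate block and the fit without both replicates 2 called no gene for this difference.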

How the results depend on the processing

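The log2 fold changes of 64 named genes were recomputed under 40 settings: 2488 values kept direction and side of the threshold, 60 (29 genes) kept direction and passed it, and 12 (4 genes) changed sign. The last were Dlx1as (0.0216 by voom, 0.03 with the replicate block, 0.0325 with block and length-corrected offsets, 0.0124 in the 8-library blocked fit, and −0.153 to 0.124 when libraries were left out), Dlx6 (−0.0124 to 0.139 when libraries were left out, the lowest without wild type replicate 1), Enpp2 (−0.00563 by voom, −0.0186 to 0.0742 when libraries were left out and −0.0307 without wild type replicate 1 under length-corrected offsets) and Hoxa2 (−0.102 to 0.195 when libraries were left out and −0.0111 without wild type replicate 1 under length-corrected offsets). The cause was not tested.

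Calls in heterozygous against wild type libraries numbered 0, with 80 by DESeq2, 1 with block and length-corrected offsets, 1 in batch 2 and 40 in the 8-library blocked fit. Leaving out 1 library gave 0 to 196. Within batch 2 the 1 call became 56 by DESeq2, 10 with the replicate block, 15 with block and length-corrected offsets, 0 with only the groups compared, 0 without both replicates 2, and 0 to 75 without 1 library. For double against Dlx5 heterozygotes the 2 calls became 4 by voom, 1 without the batch term, 1 with only the groups compared, 1 without both replicates 2, 6 in batch 2, and 0 to 2 without 1 library (0 without double heterozygous replicate 1). The averaged effect had 4 calls, with 26 by DESeq2, 1 by voom, 1 without the batch term, 7 with the replicate block, 8 with block and length-corrected offsets, 1 without both replicates 2, and 1 to 7 without 1 library (7 without replicate 3 of wild type or of heterozygotes). The difference between backgrounds had 1 call, with 0 by voom, with only the groups compared, with the replicate block and without both replicates 2, 2 with length-corrected offsets with or without block, 6 in batch 2, and 0 to 1 without 1 library. In batch 2 the double heterozygous arm of both is 1 library, assumed to vary like the other groups. The midpoint test had 3 calls, with 94 by DESeq2, 5 by voom, 1 without the batch term, 0 with only the groups compared, 7 with the replicate block, 5 with length-corrected offsets, 10 with both, 6 with the neuron covariate, and 2 to 30 without 1 library (30 without wild type replicate 1).

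Depth limits genes of few counts, such as Six3 and Dlx4.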
